A study of Mus musculus with 12 samples.

Results

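UDP-glucuronosyltransferases and cytosolic sulfotransferases were taken as the protein-coding genes whose name starts with Ugt1a, Ugt2, Ugt3 or Sult, which gave 42 of the 54532 genes in the table of raw counts. The 42 members were 9 Ugt1a, 10 Ugt2, 2 Ugt3 and 21 Sult genes. In liver that received the ANG8 adenovirus, 9 of the 23 members with enough reads for a test were lower than in liver that received the Ad_GFP virus, and 0 were higher, while 6.39% of all tested genes were lower and 7.08% higher. In liver that received the shANG8 virus, 0 of 23 passed the test against the shCtrl virus, while 0.191% of all tested genes did.

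Glucuronosyltransferases sit in the endoplasmic reticulum and join a sugar, in most cases glucuronic acid from UDP-glucuronic acid, to bilirubin, bile acids, steroids and drugs. Sulfotransferases are soluble enzymes that transfer sulfate from the donor PAPS to phenols, catecholamines, steroids and bile acids. Both reactions make small lipophilic molecules more soluble in water, and the liver is a main site of both, with transporters that carry the conjugates into bile or blood.

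RNA of mouse liver was sequenced in 12 libraries, 3 in each of 4 groups, all from mice of genotype WT that had carried an adenovirus for 9 days. The ANG8 group received the virus for overexpression of ANGPTL8, a secreted protein of liver and fat known for its part in lipoprotein metabolism, and its control was the Ad_GFP virus. The shANG8 group received a virus with a short hairpin RNA against Angptl8, and its control was the shCtrl virus. All 4 groups therefore carried an adenovirus, and no group without virus was analysed here. The sex, strain and age of the mice, and whether the 3 libraries of a group came from separate mice, are not stated in the sources, so each p-value reflects only how far these samples spread, which may be technical in part.

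Total counts were 12537083 to 15144312 per library. Mitochondrial genes took 22.5 to 43.8% of the counts in ANG8 libraries, against 19.8 to 34.9% in Ad_GFP libraries, and 19.3 to 22.9% in shANG8 libraries, against 22.9 to 24.2% in shCtrl libraries. Levels are given as CPM, a gene's counts relative to the total of its library after edgeR's TMM scaling. Angptl8 was at 165, 314 and 172 CPM in ANG8 libraries, against 96.8, 80.4 and 90.05 CPM in Ad_GFP libraries, a log2 fold change of 1.28 (SE 0.33, edgeR adjusted p = 0.0201). It was at 144, 143 and 79.2 CPM in shANG8 libraries, against 340, 391 and 167 CPM in shCtrl libraries, which did not pass the test (log2 fold change -1.29, SE 0.33, edgeR adjusted p = 0.235). Neither pair of groups overlapped, so that the target gene moved in the labelled direction in both. The Angptl8 level of the 3 shCtrl libraries lay above that of the 3 Ad_GFP libraries, but the test was not passed (log2 difference 1.75, SE 0.33, edgeR adjusted p = 0.338). The ANG8 range of 165 to 314 CPM overlapped the shCtrl range of 167 to 391 CPM. Of the shANG8 libraries, the one at 79.2 CPM lay below the Ad_GFP range, and those at 144 and 143 CPM lay above it.

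Of the 42 members, 23 passed the filter on low counts: 5 Ugt1a, 8 Ugt2, 2 Ugt3 and 8 Sult genes. Another 11 had reads but too few for a test, with totals over the 12 libraries of 1 to 62 and at most 16 in any library. These were Ugt1a7c (62 reads), Sult6b1 (39), Sult2b1 (37), Sult4a1 (20), Sult2a1 (5), Sult3a1 (4), Ugt1a2 (3), Ugt1a10, Ugt1a8 and Sult6b2 (2 each) and Sult2a2 (1). Among them, Sult2b1 is known for cholesterol and pregnenolone, and Sult4a1 is found mainly in brain. The other 8 had 0 reads in every library: Ugt2a1, Ugt2a2, Sult1c1, Sult2a3, Sult2a4, Sult2a5, Sult2a6 and Sult3a2. A count of 0 over all libraries allows a level of up to 0.0177 CPM (3 counts of the summed total), for counting error only. Ugt2a1 shares its downstream exons with Ugt2a2, and several Sult2a genes share long stretches of sequence, so that reads of these genes could be lost in counting.

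Ugt2 genes held 64.7% of all counts of the 42 members, Sult genes 32.2%, Ugt3 genes 2.57% and Ugt1a genes 0.520%. Per length of transcript, the mean level over the 12 libraries was highest for Ugt2b5, at 398 CPM per kb. Ugt2b36 followed at 211, Sult2a8 at 158, Sult1a1 at 136 and Sult1d1 at 128 CPM per kb. Next came Ugt2b34 at 92.4, Ugt2b1 at 83.1, Ugt2b35 at 69.3, Ugt2a3 at 61.9 and Ugt3a2 at 25.6 CPM per kb. The same 10 members held the highest levels, and every other tested member averaged 8.0 CPM per kb (Sult5a1) or less. Low Ugt1a values need care. The 9 Ugt1a genes on chromosome 1 have a first exon of their own and common downstream exons, so that 50.3 to 60.6% of the exon bases of each one belong to other Ugt1a genes too. By default, featureCounts leaves out reads that lie in several genes, and whether the authors kept that default is not stated. The Ugt1a levels are therefore uncertain and are not ranked against those of the other families.

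With ANG8, the summed level of the Sult genes was 365, 429 and 362 CPM, against 1222, 1233 and 906 CPM with Ad_GFP. All 3 ANG8 libraries thus lay below every Ad_GFP library. The means were 385 ± 37.6 CPM in ANG8 libraries and 1121 ± 186 CPM in Ad_GFP libraries (SD, n = 3 each, exact two-sided permutation test p = 0.1, the smallest p that 3 against 3 libraries allow). The summed Ugt3 level was 40.6 ± 4.10 CPM in ANG8 libraries and 72.5 ± 13.5 CPM in Ad_GFP libraries (exact permutation p = 0.1), also without overlap. The summed Ugt2 level of 1897 ± 111 CPM in ANG8 libraries and 2091 ± 273 CPM in Ad_GFP libraries overlapped (exact permutation p = 0.4). The Ugt1a sums of 16.5 ± 3.64 CPM with ANG8 and 20.9 ± 7.02 CPM with Ad_GFP overlapped as well (exact permutation p = 0.4). In bulk liver RNA, fewer cells of a type and less RNA per cell cannot be told apart.

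**Figure D1:**
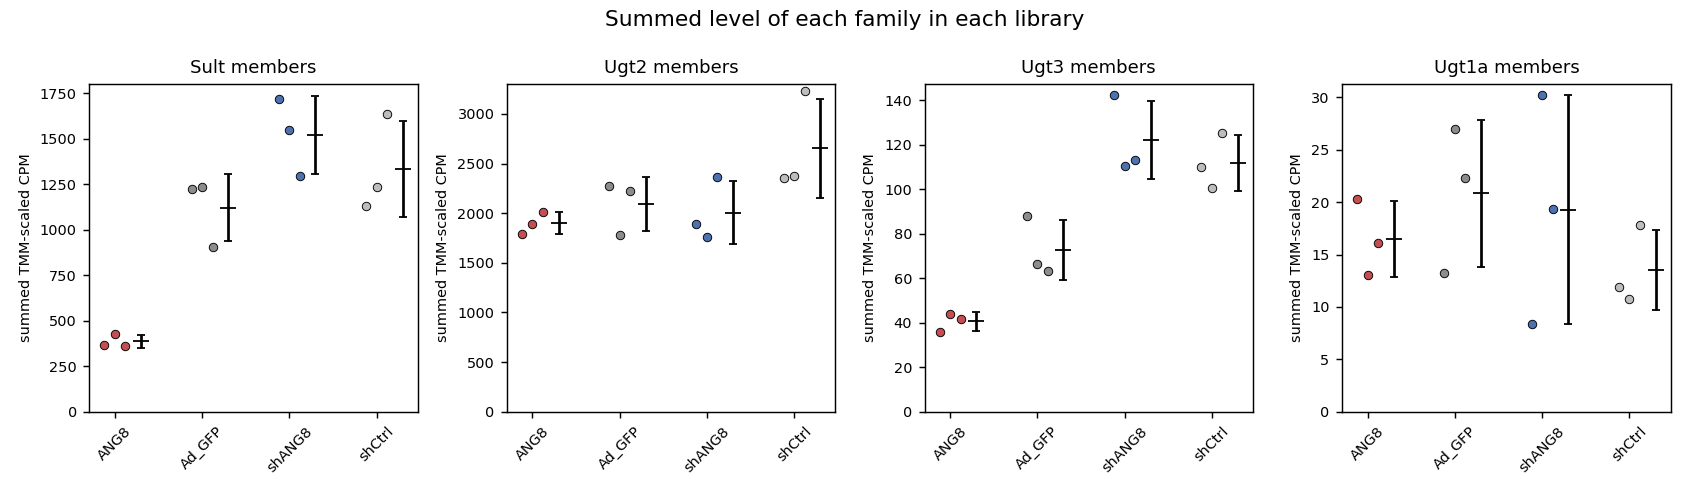
Summed level of the Sult, Ugt2, Ugt3 and Ugt1a genes (vertical axes, summed scaled CPM, each from 0) in the 3 libraries of the ANG8, Ad_GFP, shANG8 and shCtrl groups. Points are libraries and the bar beside them is the mean with 1 SD; the Sult sums of 362 to 429 CPM with ANG8 lie below all 9 other libraries.

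In the comparison of ANG8 with Ad_GFP, 9 of 23 tested members were lower and 0 higher at an adjusted p under 0.05 (edgeR quasi-likelihood test, Benjamini-Hochberg adjustment over 14686 genes). Over all tested genes, 6.39% were called lower and 7.08% higher, 13.5% in all. The 9 were Sult2a8, Sult5a1, Sult1d1, Sult1b1, Ugt2b1, Ugt2a3, Ugt2b38, Ugt3a1 and Ugt3a2: 4 of 8 tested Sult genes, 3 of 8 Ugt2 genes, both Ugt3 genes and 0 of 5 Ugt1a genes. The median log2 fold change of the 23 members was -0.78, against -0.00 over all tested genes. The ANG8 libraries lay wholly below the Ad_GFP libraries for 11 of 23 members (16.2% of all tested genes) and wholly above them for 1, Ugt2b35 (17.9% of all tested genes, 34.1% in either direction). The count of 9 was 5 without ANG8 replicate 1 (mitochondrial share 39.0%), 7 without ANG8 replicate 2 (43.8%) and 6 to 8 without any other library of these groups. DESeq2 called 11, with Sult1a1 lower (adjusted p = 0.0477) and Ugt2b35 higher (adjusted p = 0.0387) in addition. The count was 7 with the mitochondrial share as a covariate, an alternative chosen after seeing the data.

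Sult2a8, the bile acid sulfotransferase of mouse liver, showed the largest fold change of the called members. It was at 66.4, 97.4 and 47.1 CPM in ANG8 libraries, against 695, 440.0 and 406 CPM in Ad_GFP libraries. Every Ad_GFP library was thus more than 4 times as high as the highest ANG8 library. The level with ANG8 was 7.31-fold lower (log2 fold change -2.87, SE 0.33, edgeR adjusted p = 0.000118). Sult2a8 made up 18.2, 22.7 and 12.99% of all Sult counts in ANG8 libraries, against 56.8, 35.7 and 44.8% in Ad_GFP libraries. Its share of the Sult pool was thus lower in each ANG8 library than in any Ad_GFP library. It lies at chr7:14410686-14446769 on the minus strand (GRCm38).

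Sult1d1, which conjugates catecholamines in the mouse, was at 176, 191 and 155 CPM in ANG8 libraries, against 274, 517 and 299.9 CPM in Ad_GFP libraries. Replicate 2 of Ad_GFP stood high, yet all 3 Ad_GFP libraries exceeded all 3 ANG8 libraries, and the log2 fold change was -1.07 (SE 0.28, edgeR adjusted p = 0.0182). Leaving out Ad_GFP replicate 2, ANG8 replicate 1 or ANG8 replicate 3 ended this call, with an adjusted p of 0.106, 0.0641 and 0.0617. Sult5a1, an orphan member of the family, was at 11.0, 14.7 and 12.2 CPM in ANG8 libraries, against 40.0, 61.7 and 27.0 CPM in Ad_GFP libraries. The ANG8 values were tight and the Ad_GFP values spread, without overlap (log2 fold change -1.77, SE 0.33, edgeR adjusted p = 0.00398). Sult1b1, known for thyroid hormones and small phenols, was at 5.0, 2.79 and 5.88 CPM in ANG8 libraries, against 8.54, 9.25 and 7.87 CPM in Ad_GFP libraries (log2 fold change -0.90, SE 0.26, edgeR adjusted p = 0.0272). Its call was the least stable of the Sult genes: without Ad_GFP replicate 1 or 2, or without ANG8 replicate 1 or 2, the adjusted p was 0.0708, 0.0878, 0.0659 and 0.112.

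The other 4 tested Sult genes did not pass. Sult1a1, the main phenol sulfotransferase, was at 99.0, 118 and 133 CPM in ANG8 libraries, against 198, 187 and 158 CPM in Ad_GFP libraries. The groups did not overlap, but the test was not passed (log2 fold change -0.63, SE 0.23, edgeR adjusted p = 0.0771). Sult1e1, the estrogen sulfotransferase, was at 4.13, 2.13 and 5.64 CPM in ANG8 libraries, against 0.633, 12.4 and 1.88 CPM in Ad_GFP libraries. A single Ad_GFP library, replicate 2, held most of its reads in that group, and the log2 fold change of -0.30 had an SE of 1.01. Sult2a7 and Sult1c2 were under 5 CPM in these 6 libraries, with log2 fold changes of -1.41 (SE 0.60) and -0.91 (SE 0.42).

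Among the Ugt2 genes, the 4 with the most transcript per length did not move alike. Ugt2b5 was at 611, 596 and 677 CPM in ANG8 libraries, against 823, 621 and 856 CPM in Ad_GFP libraries, overlapping (log2 fold change -0.29, SE 0.21, edgeR adjusted p = 0.413). Ugt2b36 was at 371, 365 and 468 CPM in ANG8 libraries, against 479, 413 and 469.9 CPM in Ad_GFP libraries (-0.18, SE 0.20, adjusted p = 0.621). Ugt2b34 was at 410.5, 478 and 456 CPM in ANG8 libraries, against 375, 311 and 419 CPM in Ad_GFP libraries (0.28, SE 0.21, adjusted p = 0.422). For all 3 the test found no difference beyond the spread, which does not show that they were equal. Ugt2b1, whose rat form conjugates bisphenol A, was at 62.6, 62.1 and 85.3 CPM in ANG8 libraries, against 229.9, 148 and 167 CPM in Ad_GFP libraries. It was 2.60-fold lower with ANG8, without overlap (log2 fold change -1.38, SE 0.23, edgeR adjusted p = 0.00120).

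Ugt2a3, whose human form conjugates bile acids such as hyodeoxycholic acid, was at 54.3, 69.4 and 73.7 CPM in ANG8 libraries, against 139.7, 119 and 107 CPM in Ad_GFP libraries (log2 fold change -0.89, SE 0.19, edgeR adjusted p = 0.00506). No ANG8 value reached the Ad_GFP range. Ugt2b38 was at 1.59, 1.48 and 1.27 CPM in ANG8 libraries, against 13.7, 5.18 and 8.41 CPM in Ad_GFP libraries (log2 fold change -2.65, SE 0.76, edgeR adjusted p = 0.0431). This call is uncertain, because 24.2% of the stretches of 100 bases in its transcripts also occur in Ugt2b5 or Ugt2b37, and because the adjusted p was 0.0651 to 0.135 whichever of the 6 libraries was left out. Ugt2b35 ran the other way, at 274, 315 and 246 CPM in ANG8 libraries, against 210.4, 153 and 186 CPM in Ad_GFP libraries. Its ANG8 libraries all lay above its Ad_GFP libraries, but the test was not passed (log2 fold change 0.60, SE 0.21, edgeR adjusted p = 0.0713).

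Both Ugt3 genes fell. These enzymes are known, in their human forms, for sugars other than glucuronic acid: UGT3A1 uses UDP-N-acetylglucosamine and UGT3A2 uses UDP-glucose and UDP-xylose. Ugt3a2 was at 33.7, 41.2 and 38.3 CPM in ANG8 libraries, against 79.8, 60.05 and 55.7 CPM in Ad_GFP libraries (log2 fold change -0.79, SE 0.18, edgeR adjusted p = 0.00793). Without ANG8 replicate 1 its adjusted p was 0.0509. Ugt3a1 was at 2.32, 2.70 and 3.46 CPM in ANG8 libraries, against 8.10, 6.37 and 7.33 CPM in Ad_GFP libraries, 2.56-fold lower (log2 fold change -1.35, SE 0.25, edgeR adjusted p = 0.00244). Neither gene overlapped between the groups.

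Of the 5 tested Ugt1a genes 0 passed with edgeR, 0 were at an unadjusted p under 0.05 and 0 were called with DESeq2, while without a filter on low counts Ugt1a6a was called lower (adjusted p = 0.0245). Ugt1a6a, a phenol glucuronosyltransferase, was at 9.56, 7.05 and 8.67 CPM in ANG8 libraries, against 9.43, 19.8 and 14.5 CPM in Ad_GFP libraries (log2 fold change -0.78, SE 0.41, edgeR adjusted p = 0.235). Ugt1a1, the bilirubin enzyme, was at 1.38, 2.29 and 1.58 CPM in ANG8 libraries, against 1.33, 1.85 and 1.61 CPM in Ad_GFP libraries (0.13, SE 0.50). The log2 fold changes of the other 3 tested Ugt1a genes were 0.33 to 0.73 with SEs of 0.58 to 0.82. The libraries held 110 to 384 Ugt1a reads each.

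**Figure D2:**
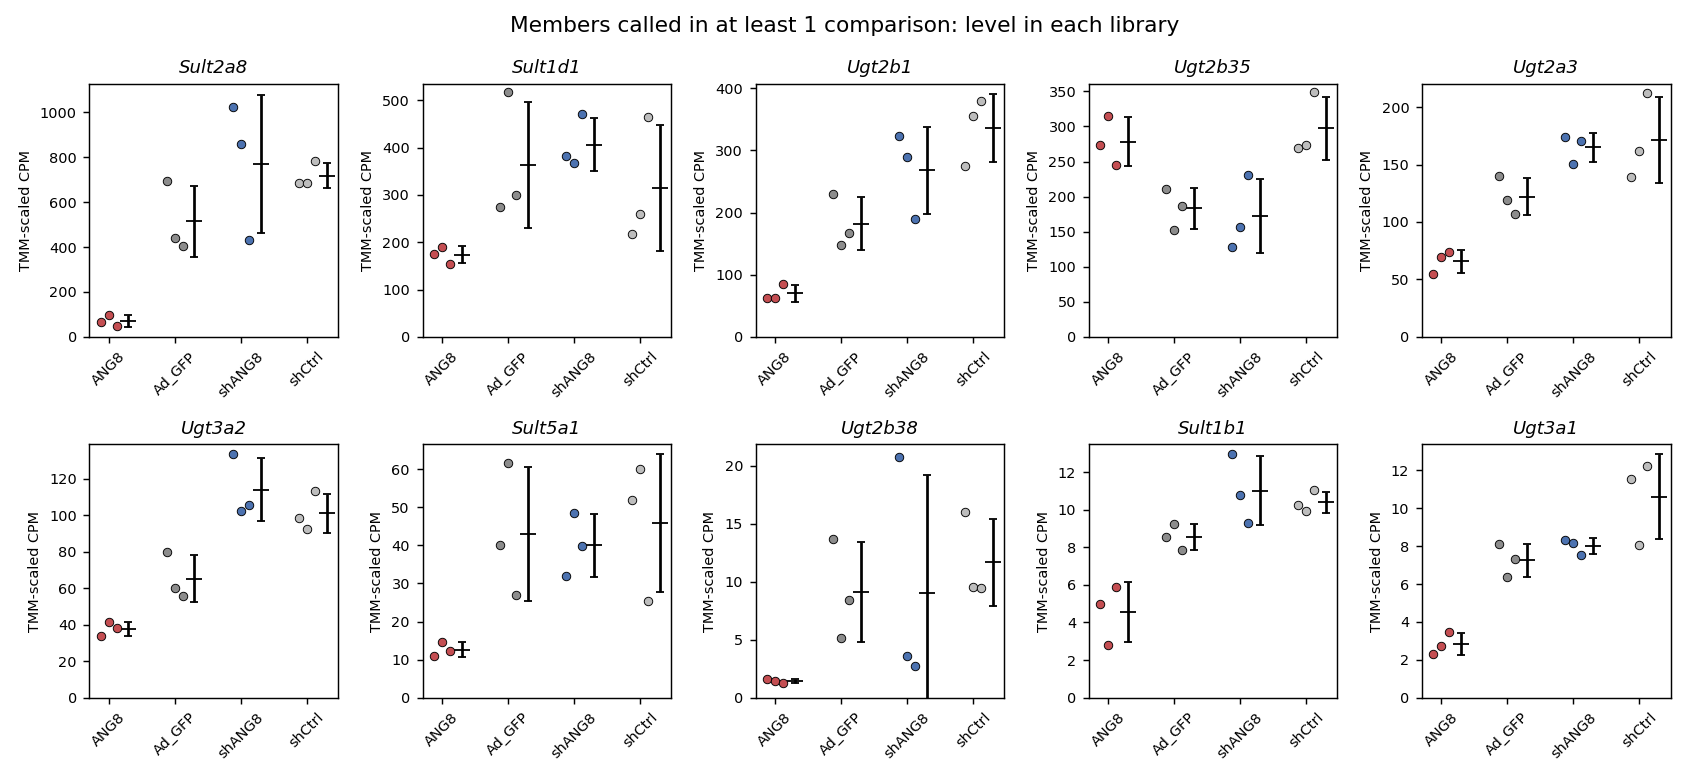
Scaled CPM (vertical axes, from 0) of the 10 members called in at least 1 comparison, in the 3 libraries of the ANG8, Ad_GFP, shANG8 and shCtrl groups. Points are libraries and bars the mean with 1 SD (for Ugt2b38 in shANG8 the bar runs below 0 and is cut there); Sult2a8 stays at 47.1 to 97.4 CPM with ANG8 and at 406 CPM or more in all other libraries, and Ugt2b35 is the panel in which ANG8 lies above Ad_GFP.

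With shANG8, 0 of 23 members passed against shCtrl, against 0.191% of all tested genes (0.129% lower and 0.0613% higher). At an unadjusted p under 0.05 edgeR gave 3 members, Ugt2b37, Ugt2b35 and Ugt2b5, and DESeq2 called 2, Ugt2b35 and Ugt2b37 (adjusted p = 0.0484 and 0.0497). For the same 3 members the shANG8 libraries lay wholly below the shCtrl libraries (6.78% of all tested genes), and for 0 members above (6.16%). The median log2 fold change of the 23 was 0.08, against 0.01 over all tested genes.

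Ugt2b35 was at 128, 156 and 230.4 CPM in shANG8 libraries, against 269.7, 273 and 349 CPM in shCtrl libraries (log2 fold change -0.79, SE 0.21, edgeR adjusted p = 0.236, and 0.0443 without shANG8 replicate 3). Replicate 3 was the highest library in both groups. Ugt2b37 was at 2.27, 1.49 and 0.984 CPM in shANG8 libraries, against 4.55, 3.48 and 4.48 CPM in shCtrl libraries (-1.40, SE 0.35, edgeR adjusted p = 0.182). Ugt2b5 was at 569, 519 and 791 CPM in shANG8 libraries, against 844, 799 and 1167 CPM in shCtrl libraries (-0.58, SE 0.21, edgeR adjusted p = 0.481). All 8 tested Ugt2 genes had a negative estimate, from -1.40 to -0.05, and 7 of 8 tested Sult genes a positive one, though 0 of them passed. Over all 14686 tested genes, 7178 estimates were negative and 7508 positive. The summed Ugt2 level was 2007 ± 318 CPM in shANG8 libraries and 2653 ± 499 CPM in shCtrl libraries (SD, n = 3 each, exact two-sided permutation p = 0.2). The summed Sult level was 1519 ± 213 CPM in shANG8 libraries and 1333 ± 266 CPM in shCtrl libraries (exact permutation p = 0.4). The Ugt3 sums were 122 ± 17.5 and 112 ± 12.6 CPM in shANG8 and shCtrl libraries (exact permutation p = 0.5), and the Ugt1a sums 19.3 ± 10.9 and 13.5 ± 3.79 CPM (exact permutation p = 0.6).

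The members called with ANG8 were spread as follows in the knockdown pair. Sult2a8 was at 1021, 859 and 429.7 CPM in shANG8 libraries, against 685, 685 and 783 CPM in shCtrl libraries (log2 fold change 0.10, SE 0.31). Sult1d1 was at 382, 367 and 471 CPM in shANG8 libraries, against 217, 260.0 and 466 CPM in shCtrl libraries (0.37, SE 0.27). In both genes the groups overlapped because of replicate 3, which was low in shANG8 for Sult2a8 and high in shCtrl for Sult1d1. Ugt2b1 was at 323, 289.9 and 189 CPM in shANG8 libraries, against 275, 355 and 378 CPM in shCtrl libraries (-0.33, SE 0.23). Ugt2a3 was at 174, 151 and 171 CPM in shANG8 libraries, against 139, 162 and 213 CPM in shCtrl libraries (-0.05, SE 0.19). These values overlapped between the groups.

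Ugt3a2 was at 134, 102 and 106 CPM in shANG8 libraries, against 98.3, 92.3 and 113 CPM in shCtrl libraries (0.17, SE 0.18). Ugt3a1 was at 8.34, 8.18 and 7.52 CPM in shANG8 libraries, against 11.5, 8.06 and 12.2 CPM in shCtrl libraries (-0.40, SE 0.24). Neither Ugt3 gene differed beyond the spread between libraries. Sult5a1 was at 31.9, 48.5 and 39.8 CPM in shANG8 libraries, against 51.8, 60.1 and 25.4 CPM in shCtrl libraries (-0.19, SE 0.32). Sult1b1 was at 12.96, 10.8 and 9.28 CPM in shANG8 libraries, against 10.2, 9.91 and 11.0 CPM in shCtrl libraries (0.08, SE 0.24). Of the low members, Ugt2b38 had 1 high library in shANG8, at 20.8 CPM beside 3.62 and 2.74 CPM, against 16.0, 9.57 and 9.42 CPM in shCtrl libraries (-0.37, SE 0.66).

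The other abundant members called in no comparison overlapped between shANG8 and shCtrl, unlike Ugt2b5. Sult1a1 was at 259.8, 255 and 333 CPM in shANG8 libraries, against 163, 214 and 339 CPM in shCtrl libraries (0.24, SE 0.23). Ugt2b36 was at 336, 353 and 516 CPM in shANG8 libraries, against 442, 423 and 581 CPM in shCtrl libraries (-0.26, SE 0.20). Ugt2b34 was at 335, 290.0 and 466 CPM in shANG8 libraries, against 368, 345 and 526 CPM in shCtrl libraries (-0.18, SE 0.21). In each of these 3 genes replicate 3 was the highest library of both groups.

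**Figure D3:**
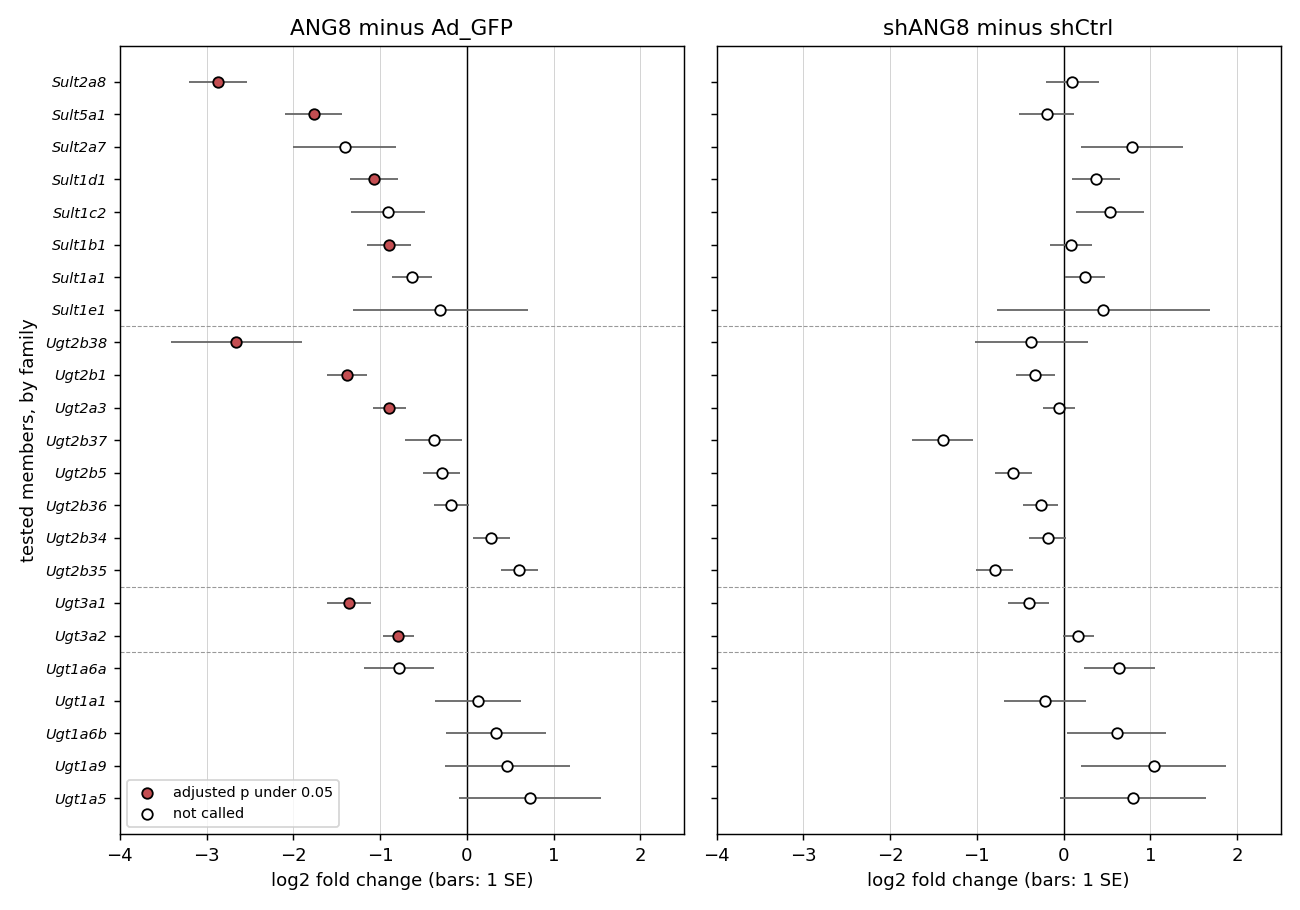
Log2 fold change of the 23 tested members (rows, grouped by family) for ANG8 minus Ad_GFP (left) and shANG8 minus shCtrl (right), with bars of 1 SE. Filled points passed an adjusted p under 0.05; the 9 filled points on the left are all negative, and the right side has 0.

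Whether the effect of ANG8 (against Ad_GFP) differed from that of shANG8 (against shCtrl) was tested as an interaction over all 12 libraries. It passed for 4 of 23 members (6.62% of all tested genes), with 3 lower and 1 higher (2.90% and 3.72% of all tested genes). Sult2a8 had a difference of log2 effects of -2.97 (SE 0.45, edgeR adjusted p = 0.00227), Ugt3a2 of -0.96 (SE 0.25, adjusted p = 0.0293), Sult1d1 of -1.44 (SE 0.39, adjusted p = 0.0367) and Ugt2b35 of 1.40 (SE 0.30, adjusted p = 0.0130). For Ugt2b35 the estimates had opposite signs, 0.60 with ANG8 and -0.79 with shANG8. Its ANG8 range of 246 to 315 CPM overlapped its shCtrl range of 269.7 to 349 CPM. Its shANG8 range of 128 to 230.4 CPM overlapped its Ad_GFP range of 153 to 210.4 CPM. Sult2a8 and Ugt2b35 were called under all 18 alternatives, Ugt3a2 under 13 and Sult1d1 under 9. The count of 4 was 2 without ANG8 replicate 1 and 2 without shCtrl replicate 1. Without ANG8 replicate 1, Ugt3a2 had an adjusted p of 0.0909 and Sult1d1 one of 0.0833. Without shCtrl replicate 1 these were 0.0729 and 0.0894.

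The control viruses were compared because levels were read across all 4 groups. Between shCtrl and Ad_GFP, 0 of 23 members and 0 of all tested genes passed (0%) with edgeR. At an unadjusted p under 0.05 edgeR gave 7 members, and DESeq2 called 1, Ugt2b1 (adjusted p = 0.0496). Ugt2b1 was at 275 to 378 CPM in shCtrl libraries and at 148 to 229.9 CPM in Ad_GFP libraries (log2 difference 0.89, SE 0.23, edgeR adjusted p = 0.372). Its levels with ANG8 were below both controls. Ugt2b35 had a log2 difference of 0.70 (SE 0.21, edgeR adjusted p = 0.442) between shCtrl and Ad_GFP, larger than its difference of 0.60 between ANG8 and Ad_GFP.

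The ratio of Ugt2b35 to Ugt2b1 counts within a library, a pair chosen after their values were seen, was 4.37, 5.07 and 2.88 in ANG8 libraries and 0.915, 1.03 and 1.11 in Ad_GFP libraries. It was 0.397, 0.539 and 1.22 in shANG8 libraries and 0.982, 0.770 and 0.923 in shCtrl libraries. A ratio within a library does not depend on its scaling, and the 3 ANG8 libraries had the highest ratios of all 12. Both genes lie in a cluster on chromosome 5 that holds 13 of the 42 members between positions 86889767 and 87591594 (GRCm38), a span of 701828 bases with 14 protein-coding genes. Their order is Ugt2b34, Ugt2b1, Ugt2b35, Ugt2b36, Ugt2b5, Ugt2b37, Ugt2a3, Ugt2b38, Ugt2a1, Ugt2a2, Sult1b1, Sult1d1 and Sult1e1. Ugt2b35 lies on the plus strand and the other 12 on the minus strand. Of the members called with ANG8, Ugt2b1 stood apart: its neighbours Ugt2b34 and Ugt2b35 had estimates of 0.28 and 0.60. Ugt2a3, Ugt2b38, Sult1b1 and Sult1d1 were lower in a run, broken only by Ugt2a1 and Ugt2a2, which had 0 reads. At the ends of this run lay Ugt2b37, at -0.38 (SE 0.32), and Sult1e1, at -0.30 (SE 1.01), which were not called.

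**Figure D4:**
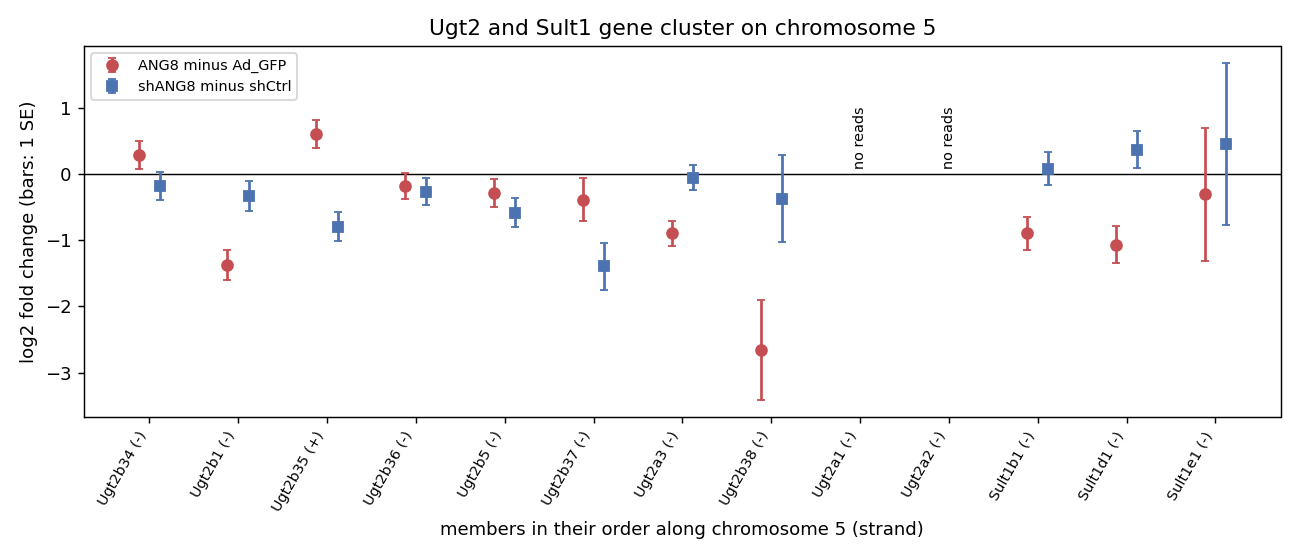
Log2 fold change (vertical axis, bars of 1 SE) of the 13 members of the chromosome 5 cluster in their order along the chromosome, for ANG8 minus Ad_GFP (circles) and shANG8 minus shCtrl (squares). Ugt2a1 and Ugt2a2 had 0 reads; the circles change sign between Ugt2b34 (0.28), Ugt2b1 (-1.38) and Ugt2b35 (0.60).

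The sequence before the start of Ugt2b1 and Ugt2b35 is shown because these neighbours had log2 fold changes of opposite sign with ANG8. Both sequences are from RefSeq (GRCm38.p6), read 5′ to 3′ on the strand of the gene, up to 250 bases before the RefSeq start and without bases inside the deposited gene. The regions are chr5:86926531-86926753 (minus) for Ugt2b1 and chr5:87000610-87000859 (plus) for Ugt2b35. Capitals would mark any of the 4 motifs named below, and neither sequence has a match.
Ugt2b1: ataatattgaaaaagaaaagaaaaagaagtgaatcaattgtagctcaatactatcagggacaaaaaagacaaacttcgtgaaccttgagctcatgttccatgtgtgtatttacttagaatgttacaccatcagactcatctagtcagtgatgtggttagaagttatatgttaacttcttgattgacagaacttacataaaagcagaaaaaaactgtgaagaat
Ugt2b35: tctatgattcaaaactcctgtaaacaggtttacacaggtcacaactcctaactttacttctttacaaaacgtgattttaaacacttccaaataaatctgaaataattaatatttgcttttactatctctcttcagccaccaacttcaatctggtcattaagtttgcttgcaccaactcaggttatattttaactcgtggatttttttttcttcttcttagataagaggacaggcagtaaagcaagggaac

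Of the 42 members, 36 had an entry in the RefSeq promoter table. The median share of A and T in the 250 bases before the start was 62.0% in members, against 47.6% in all 27025 genes of the table. Of 4 motifs searched on both strands, TATAAA was in 9 members (12.3% of 32536 windows of that length) and GCGTG of the aryl hydrocarbon receptor element in 5 (28.3%). TTCNNNGAA of STAT factors was in 2 members (7.04%) and TGACNNNGC of the antioxidant element in 0 (10.2%). A member with several windows counted if any of them matched, whereas the percentages are of single windows. Of the 9 members with TATAAA, only Sult2a8 and Ugt3a1 had enough reads for a test. A match is a description of the letters and shows no binding, and a missing match says only that these letters are not in this window.

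Of 5 tested genes for UDP-glucuronic acid supply and use, 1 rose with ANG8: Ugdh, which makes UDP-glucuronic acid, was at 584 ± 65.9 CPM in ANG8 libraries and 265 ± 32.5 CPM in Ad_GFP libraries (SD, n = 3 each, log2 fold change 1.14, SE 0.29, edgeR adjusted p = 0.0167). That count was 0 without ANG8 replicate 1 or 2 or Ad_GFP replicate 1 or 2. Of 8 tested genes for PAPS and sulfate supply, 2 fell. Papss2, which makes PAPS, was at 63.9 ± 4.81 CPM in ANG8 libraries and 144 ± 22.7 CPM in Ad_GFP libraries (-1.17, SE 0.21, edgeR adjusted p = 0.00222). Slc26a1, a sulfate transporter, was at 54.6 ± 6.81 CPM in ANG8 libraries and 82.6 ± 10.8 CPM in Ad_GFP libraries (-0.60, SE 0.16, edgeR adjusted p = 0.0195). Only 1 of these genes was called without ANG8 replicate 1 or 2 or Ad_GFP replicate 1 or 2. The median log2 fold changes of the lists were 0.25 and -0.22, against -0.00 over all tested genes.

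Transporters and other enzymes of conjugation were described in the same way. Of 10 tested transporters of bile acids and conjugates, 2 rose and 5 fell with ANG8 (median -0.47), and 4 were called without Ad_GFP replicate 1 or without ANG8 replicate 3. In the liver, Abcc4, an export pump of the sinusoidal membrane, was at 16.6 ± 3.98 CPM in ANG8 libraries and 0.839 ± 0.479 CPM in Ad_GFP libraries (4.31, SE 0.44, edgeR adjusted p = 4.39e-05). Slc10a1, the bile acid uptake transporter, was at 34.05 ± 5.39 CPM in ANG8 libraries and 150.2 ± 28.3 CPM in Ad_GFP libraries (-2.14, SE 0.22, edgeR adjusted p = 4.39e-05). Slco1a1 and Slco2b1, organic anion uptake transporters, had log2 fold changes of -2.45 (SE 0.44) and -0.78 (SE 0.17). Of 24 other conjugating and hydrolytic enzymes, 0 rose and 5 fell (median -0.41), among them the methyltransferases Inmt (-1.71, SE 0.25) and Gnmt (-1.31, SE 0.32) and the glutathione transferases Gstk1 (-0.97, SE 0.25) and Mgst1 (-0.67, SE 0.20). That count was 1 without ANG8 replicate 1, 2 without ANG8 replicate 2 or Ad_GFP replicate 1 and 3 without Ad_GFP replicate 3.

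Of 15 regulators of conjugation genes, among them nuclear receptors, 0 passed with edgeR (4 at an unadjusted p under 0.05, 2 with DESeq2, median -0.21), and 1 passed without ANG8 replicate 2, Ad_GFP replicate 1 or Ad_GFP replicate 3. Of 15 tested target genes of xenobiotic receptors and the antioxidant response, 6 rose and 0 fell (median 0.55), and 6 were called without any 1 library. Of their estimates, 10 were positive and 5 negative, the lowest at -0.72. The list holds both kinds of target, which were not separated. Srxn1 was at 904 ± 87.1 CPM in ANG8 libraries and 104 ± 33.2 CPM in Ad_GFP libraries (3.11, SE 0.39, edgeR adjusted p = 0.000398), and Gclc, of glutathione synthesis, at 1323 ± 104 and 302 ± 82.4 CPM (2.13, SE 0.30, adjusted p = 0.000428). Gsr and Txnrd1 rose too, by 1.48 (SE 0.18) and 1.30 (SE 0.19). Of 11 male-biased liver genes, 7 fell (median -1.14), with Cyp4a12b at -1.42 (SE 0.20), Cyp2d9 at -1.14 (SE 0.18), Slco1a1, which is also among the transporters, at -2.45 and C6 at -0.81 (SE 0.18). Without ANG8 replicate 2, 4 of the 11 were called. Of 6 tested female-biased genes 0 passed with edgeR (median 0.59, 5 estimates positive and 1 negative, 1 at an unadjusted p under 0.05). DESeq2 called 1 gene of this list, which was lower with ANG8. The summed level of the 11 female-biased genes was 376, 483 and 799 CPM in ANG8 libraries. Against these stood 23.8, 124 and 249.7 CPM in Ad_GFP libraries, without overlap (exact permutation p = 0.1). The sum was 1.74, 14.2 and 269 CPM in shANG8 libraries, against 29.0, 19.9 and 305 CPM in shCtrl libraries. Replicate 3 had the highest sum in each of the 4 groups. With shANG8, edgeR called 0 genes of any list against shCtrl. Per list, 0 to 5 genes were at an unadjusted p under 0.05, and at most 3 were called with DESeq2 or any other alternative. Of the 11 male-biased genes, 9 had a negative and 2 a positive estimate with shANG8, 5 at an unadjusted p under 0.05. Their summed level was 3822 to 4938 CPM in shANG8 libraries and 5515 to 6947 CPM in shCtrl libraries, without overlap (exact permutation p = 0.1).

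Markers of other cells moved in the same libraries. Of 10 macrophage and Kupffer cell markers, 8 rose with ANG8 and their summed level was 903 to 1173 CPM in ANG8 libraries and 384 to 516 CPM in Ad_GFP libraries. The count was 4 without ANG8 replicate 3 or Ad_GFP replicate 1 and 5 without ANG8 replicate 1 or Ad_GFP replicate 2. Of 8 T and NK cell markers, 5 rose, with sums of 111 to 130 CPM in ANG8 libraries and 38.2 to 55.6 CPM in Ad_GFP libraries. Of 11 hepatocyte markers, 4 fell (median -0.93) with 8 called without ANG8 replicate 3 and 1 called without ANG8 replicate 1 or 2 or Ad_GFP replicate 1 or 3. Their sums of 27426 to 57367 CPM in ANG8 libraries and 46392 to 71497 CPM in Ad_GFP libraries overlapped (exact permutation p = 0.2). None of these 29 markers was at 0. Of 6 tested cholangiocyte markers 0 passed (median 0.66, 2 at an unadjusted p under 0.05), and of 8 intestine and kidney markers 3 were tested and 0 passed (median -0.90, 2 at an unadjusted p under 0.05), with Umod and Slc22a6 at 0. In the knockdown pair, the T and NK cell sum was 30.7 to 43.5 CPM with shANG8 and 53.1 to 69.4 CPM with shCtrl. All 8 estimates of this list were negative, 4 at an unadjusted p under 0.05. The cholangiocyte sum was 42.6 to 60.86 CPM with shANG8 and 60.95 to 91.3 CPM with shCtrl. Neither sum overlapped (exact permutation p = 0.1 each), while the macrophage, hepatocyte, and intestine and kidney sums did. The part of these cell markers in the lower conjugation genes was not tested. For 3 members chosen after their values were seen, the log2 ratio to the hepatocyte marker sum of the same library was computed as a description. It was -9.05 ± 1.07 in ANG8 libraries and -6.90 ± 0.34 in Ad_GFP libraries for Sult2a8 (SD, n = 3 each). For Ugt2b1 it was -9.01 ± 0.34 in ANG8 libraries and -8.38 ± 0.17 in Ad_GFP libraries. For Ugt2b35 it was -7.01 ± 0.75 in ANG8 libraries and -8.36 ± 0.10 in Ad_GFP libraries.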

How the data were processed

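Per the labels' protocols, liver RNA was harvested by Trizol and made into libraries with a NEBNext Ultra kit. The authors deposited 1 table of raw, unscaled counts of reads for 54532 genes in 12 libraries. Per the submitters' processing notes, featureCounts 1.5.0-p3, CASAVA 1.8.2 and mm9 were used. Which aligner, strand setting and annotation release were used is not given in the sources, so reads of overlapping antisense genes may be shared. Of the gene identifiers, 54495 are in GENCODE vM21, and 53585 (98.3%), with all 42 members, have identical coordinates there, so positions are given as GRCm38.

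Counts were filtered with filterByExpr (14686 genes kept), scaled with TMM (trimmed mean of M values) and tested with edgeR 4.0.16 in R 4.3.3 by a robust quasi-likelihood fit to all 12 libraries in 4 groups. P-values were adjusted over all 14686 genes by the Benjamini-Hochberg method, with a threshold of 0.05. The standard error (SE) is the log2 fold change, without its sign, over the root of F. The comparisons were ANG8 minus Ad_GFP, shANG8 minus shCtrl, the difference between these effects, and shCtrl minus Ad_GFP. The fit was tested on simulated data. Alternatives were DESeq2 1.42.0, its median-ratio scaling in edgeR, no filter, only the groups compared, a replicate block, no mitochondrial genes, and leaving out each library. The mitochondrial share as a covariate was added after seeing the data. Replicates of a group differed by far more than sampling noise, so that each library was counted once.

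The members and the 13 gene lists were chosen with earlier results of these data known. Of 148 list entries 146 were found, and Sts and Tf were not analysed here. Values in every library are given for members called in any comparison and for the 10 with the highest mean level per length. Up to 6 other members serve as examples, and up to 4 called genes stand for a list, by smallest p. Differences of group means of summed levels were tested by exact permutation.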

Additional observations from a re-analysis of the deposited data

Results flagged for a closer look

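In 4 members the effect of ANG8 against Ad_GFP and that of shANG8 against shCtrl differed by the test of the difference itself (edgeR quasi-likelihood test of the interaction, adjusted p under 0.05), of 23 tested, against 6.62% of all tested genes (2.90% lower and 3.72% higher). The difference of log2 effects was -2.97 for Sult2a8, with log2 effects of -2.87 with ANG8 and 0.10 with shANG8. It was -1.44 for Sult1d1, with log2 effects of -1.07 with ANG8 and 0.37 with shANG8. It was -0.96 for Ugt3a2, with log2 effects of -0.79 with ANG8 and 0.17 with shANG8. It was 1.40 for Ugt2b35, with log2 effects of 0.60 with ANG8 and -0.79 with shANG8, neither of which passed by itself.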

How the results depend on the processing

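With ANG8, the count of 9 lower members was 5 to 8 when 1 library was left out, 9 under median-ratio scaling, with only the groups compared and without mitochondrial genes, 7 with the mitochondrial share as a covariate, and 11 with DESeq2 or without a filter (10 lower and Ugt2b35 higher). With shANG8, the count of 0 was 2 with DESeq2, 1 without a filter (Ugt2b35, adjusted p = 0.0156) and 0 to 1 when 1 library was left out. The count of 4 for the difference was 7 with DESeq2, 7 without a filter and 2 to 6 when 1 library was left out. Between shCtrl and Ad_GFP, the count of 0 was 1 with DESeq2 and 1 without a filter (Ugt2b1, adjusted p = 0.00571). Over all tested genes the counts ranged from 995 to 2600 around 1978 with ANG8, from 21 to 132 around 28 with shANG8, from 473 to 1550 around 972 for the difference and from 0 to 96 around 0 between the controls. No member changed sign as a called gene under any alternative. The causes of these moves were not tested. The fit without a filter tested 34 members in place of 23.

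Replicate numbers were shared between groups, but same-numbered libraries correlated in their deviations from the group means at only -0.07, 0.12 and 0.15 for ANG8 with Ad_GFP and at 0.03, 0.08 and 0.19 for shANG8 with shCtrl. Not every library correlated best with its own number, and the labels give no meaning to the numbers, so no pairing was assumed. With a replicate block the counts were 11 with ANG8 (10 lower, 1 higher), 0 with shANG8, 8 for the difference and 0 between the controls.

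The 19 members that failed the filter had at most 16 reads in any library. Ugt1a6a was called without a filter with ANG8 (adjusted p = 0.0245) and for the difference (0.00359, and 0.0165 without shANG8 replicate 1).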

Other observations

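Ugt1a9 and Sult1e1 had their highest values in single libraries and were chosen here after their values were seen. Ugt1a9 was at 5.87, 1.72 and 3.52 CPM in ANG8 libraries and 1.58, 3.18 and 3.30 CPM in Ad_GFP libraries, against 0.909, 0.629 and 2.46 CPM in shANG8 libraries and 0.543, 0 and 1.44 CPM in shCtrl libraries. Sult1e1 was at 0.303, 0.472 and 2.18 CPM in shANG8 libraries and 0.204, 0.342 and 1.67 CPM in shCtrl libraries, with replicate 3 the highest in both, and at 12.4 CPM in Ad_GFP replicate 2. Between the controls the log2 differences of Ugt1a9 and Sult1e1 (shCtrl minus Ad_GFP) were -2.03 (SE 0.81) and -2.75 (SE 1.15), with edgeR adjusted p-values of 0.491 and 0.543.

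Ugt3a1 made up less of the Ugt3 pair where either Angptl8 virus was used: the ratio of Ugt3a1 to Ugt3a2 counts was 0.0688, 0.0656 and 0.0903 in ANG8 libraries, against 0.101, 0.106 and 0.131 in Ad_GFP libraries. It was 0.0623, 0.0799 and 0.0711 in shANG8 libraries, against 0.117, 0.0873 and 0.108 in shCtrl libraries. Neither pair of groups overlapped. This ratio was 1 of 9 computed, was chosen after the values were seen and is a description. Ugt3a1 had 32 to 170 reads per library. The ratio of Sult1d1 to Ugt2b5 did not overlap in either pair of groups too, but was lower with ANG8 and higher with shANG8.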
